A study of Glycine max with 10 samples.

Results

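The chalcone synthase genes described here are 9 of the 56044 gene rows counted in young soybean (Glycine max) pods. They were taken as listed by identifier. CHS7 is Glyma.01G228700.Wm82.a2.v1 and CHS8 is Glyma.11G011500.Wm82.a2.v1. The rows Glyma.08G109200.Wm82.a2.v1, Glyma.08G109300.Wm82.a2.v1, Glyma.08G109400.Wm82.a2.v1 and Glyma.08G109500.Wm82.a2.v1 have consecutive numbers on chromosome 8. Glyma.05G153200.Wm82.a2.v1, Glyma.09G075200.Wm82.a2.v1 and Glyma.02G130400.Wm82.a2.v1 lie on other chromosomes, and the ending is left out from here on. Pods of field-grown plants were harvested 18 days after flowering, and total RNA was sequenced from 10 numbered soybeans. Soybeans 015, 018, 044, 060 and 071 carry the label of high pod shattering force (high_force) and soybeans 038, 055, 072, 092 and 109 that of low pod shattering force (low_force). The labels give no cultivar, genotype or harvest hour. They leave unsaid what a soybean number stands for (1 plant, several, or a line), and p-values therefore cover the spread between these 10 samples alone. The comparison addresses which genes differ in expression between pods with different dehiscence.

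Chalcone synthase joins a coumaroyl-CoA with malonyl-CoA units to give the chalcone from which flavonoids, isoflavonoids, anthocyanins and proanthocyanidins are made. Soybean carries many copies of the gene, and a group of them lies on chromosome 8, where the I locus silences chalcone synthase in the seed coat through small RNAs and so makes the seed yellow. CHS7 and CHS8 are known as the copies linked to isoflavonoid accumulation in the seed. In the RefSeq gene table of the Glycine_max_v4.0 assembly, 17 genes have a symbol made of CHS and a number, of which 9 lie on chromosome 8. None of its identifiers pairs with those of the count table, so the rows other than CHS7 and CHS8 are called by identifier. The 9 rows are therefore a part of the family, and further copies were not analysed here.

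Library totals ran from 3779756 to 13298201 counts. Levels are given in CPM, counts brought to an equal library size with TMM scaling (a trimmed mean of log ratios between libraries). Low_force 055 stands apart, because its 10 most abundant genes took 85.8% of its counts against 3.38% to 36.1% in the other 9. After scaling its effective depth was 921615 counts, against 4351305 to 20099288 in the others, and a count of 0 there allows up to 3 counts, or 3.26 CPM. Low_force 109 had 5571 CPM of the seed storage gene Gy1, against at most 65.3 CPM elsewhere. High_force 015 and low_force 055 and 072 had 646.7 to 1041 CPM of the morning clock gene LHY1a, and the other 7 had 11.8 to 19.3 CPM. No list of markers was available to check the pod label itself, and in whole pods fewer cells of a type and less RNA per cell cannot be told apart.

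CHS7 and CHS8 carried most of the counts of the 9 rows in every library, and shares below are of these 9 rows only. Pooled over the 10 libraries, the 9 rows held 6013 counts, of which CHS7 had 2922 (48.6%) and CHS8 1996 (33.2%). Glyma.08G109400 followed with 5.75%, Glyma.05G153200 with 4.77% and Glyma.02G130400 with 4.29%. Glyma.08G109500 had 1.55%, Glyma.08G109300 1.45%, Glyma.08G109200 0.283% and Glyma.09G075200 0.116%. Pooling favours the libraries with many of these counts, which ran from 54 to 1431. As a mean over libraries, CHS7 and CHS8 together had 74.1 ± 12.4% (SD, n = 10), where pooled counts give 81.8%. Glyma.02G130400 then had 7.28 ± 5.86% and Glyma.05G153200 6.27 ± 3.83%, the reverse of their pooled order, with a difference smaller than either SD. These are shares of counts and not levels per length, since no gene length of the files' annotation was used, and reads that match several copies may have been split or dropped between them. The shares therefore describe what was counted for each row.

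The share of CHS7 and CHS8 together differed between libraries. It was 58.6% in high_force 015, 71.8% in 018, 73.8% in 044, 73.8% in 060 and 60.9% in 071. In low_force it was 89.6% in 038, 91.0% in 092 and 90.8% in 109, but 63.0% in 055 and 67.3% in 072. Of the low_force libraries 3 lay above every high_force library, with 95% Wilson intervals of 87.5% to 91.4%, 89.4% to 92.4% and 89.0% to 92.3%. The other 2, soybeans 055 and 072, lay inside the high_force range, with 055 resting on 54 counts of the 9 rows (interval 49.6% to 74.6%). They are also the low_force libraries with high LHY1a, and the part of the clock state in this was not tested. The mean of 5 libraries was 67.8 ± 7.42% (SD) for high_force and 80.3 ± 14.0% (SD) for low_force, and these shares were not tested between the groups. Intervals cover counting error only.

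Within the CHS7 and CHS8 counts, CHS7 held a share of between 51.8% (low_force 092) and 71.1% (high_force 071). For high_force the mean was 61.1 ± 8.08% and for low_force 61.2 ± 5.72% (SD over 5 libraries), so the balance between these copies differed by less than the spread within either group. It did differ between libraries beyond counting error. CHS7 took 67.3% (Wilson interval 64.5% to 70.0%) in low_force 109 and 51.8% (interval 49.1% to 54.5%) in low_force 092.

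**Figure D1:**
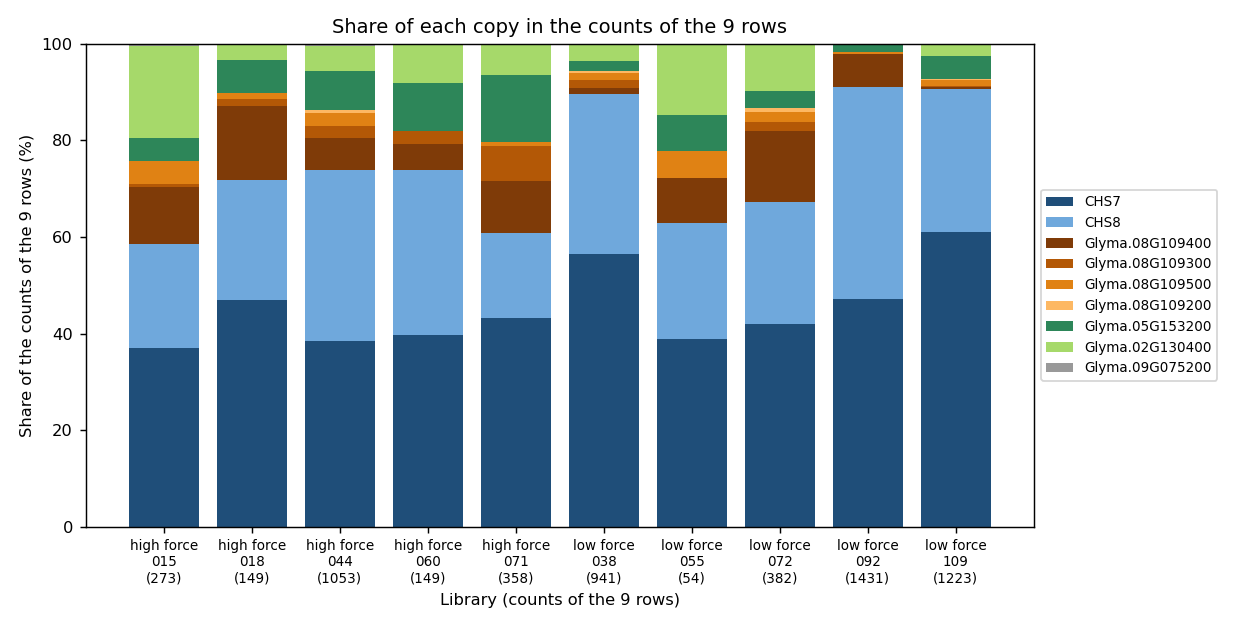
Share of each chalcone synthase row in the counts of all 9 rows, in percent, 1 stacked bar for each library, with the number of counts of the 9 rows in brackets. CHS7 and CHS8 (blue) make up about 90% of the bars of low_force 038, 092 and 109 and between 58.6% and 73.8% of the other 7.

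CHS7 was lower in every high_force library than in every low_force library. It stood at 16.7, 13.1, 20.1, 11.1 and 12.9 CPM in high_force 015, 018, 044, 060 and 071. In low_force 038, 055, 072, 092 and 109 it stood at 61.6, 22.8, 36.8, 67.3 and 75.3 CPM. The groups did not overlap, but the nearest libraries, high_force 044 and low_force 055, were close, and low_force 055 rests on 21 counts. The exact Poisson interval of low_force 055 (14.1 to 34.8 CPM) includes the level of high_force 044 (20.1 CPM). Of all genes tested, 0.387% were separated in this direction.

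The fitted log2 fold change of CHS7, high_force minus low_force, was -1.85 (SE 0.33), a level 3.60-fold higher in low_force. It did not pass edgeR's quasi-likelihood test over all 30226 genes tested (unadjusted p = 9.18e-05, adjusted p = 0.796), in which 0 genes (0%) passed in either direction. The two-sided exact permutation p for the mean log2 CPM was 0.00794, the smallest that 5 against 5 libraries allow. Of all genes tested, 2.34% were lower in high_force with an exact p under 0.05. With DESeq2, which called 25 genes (0.0745% of those given an adjusted p), the adjusted p of CHS7 was 0.00131. Scaled by library size only, low_force 055 had 3.22 CPM of CHS7, the groups overlapped and the exact permutation p was 0.405, with a fitted log2 fold change of -1.48 where the median of all genes moved to 0.54.

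CHS8 was also lower in most high_force libraries, with an overlap. Its levels were 9.74, 6.93, 18.6, 9.58 and 5.24 CPM in high_force 015, 018, 044, 060 and 071. In low_force 038, 055, 072, 092 and 109 they were 36.2, 14.1, 22.3, 62.7 and 36.6 CPM. High_force 044 lay above low_force 055, which rests on 13 CHS8 counts, and below the other 4 low_force libraries. The log2 fold change was -1.79 (SE 0.42), and it did not pass over all genes in edgeR's quasi-likelihood test (unadjusted p = 0.00108, adjusted p = 0.796) or in DESeq2 (adjusted p = 0.0635). The two-sided exact permutation p was 0.0159, and 0.389 with library size only. Without low_force 055 the groups did not overlap for CHS8 either, with 23.2 CPM in high_force 044 and 27.5 CPM in low_force 072 as the nearest libraries. That leaves out the low_force library that overlapped, and under the same choice 1.19% of all genes were separated in this direction.

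**Figure D2:**
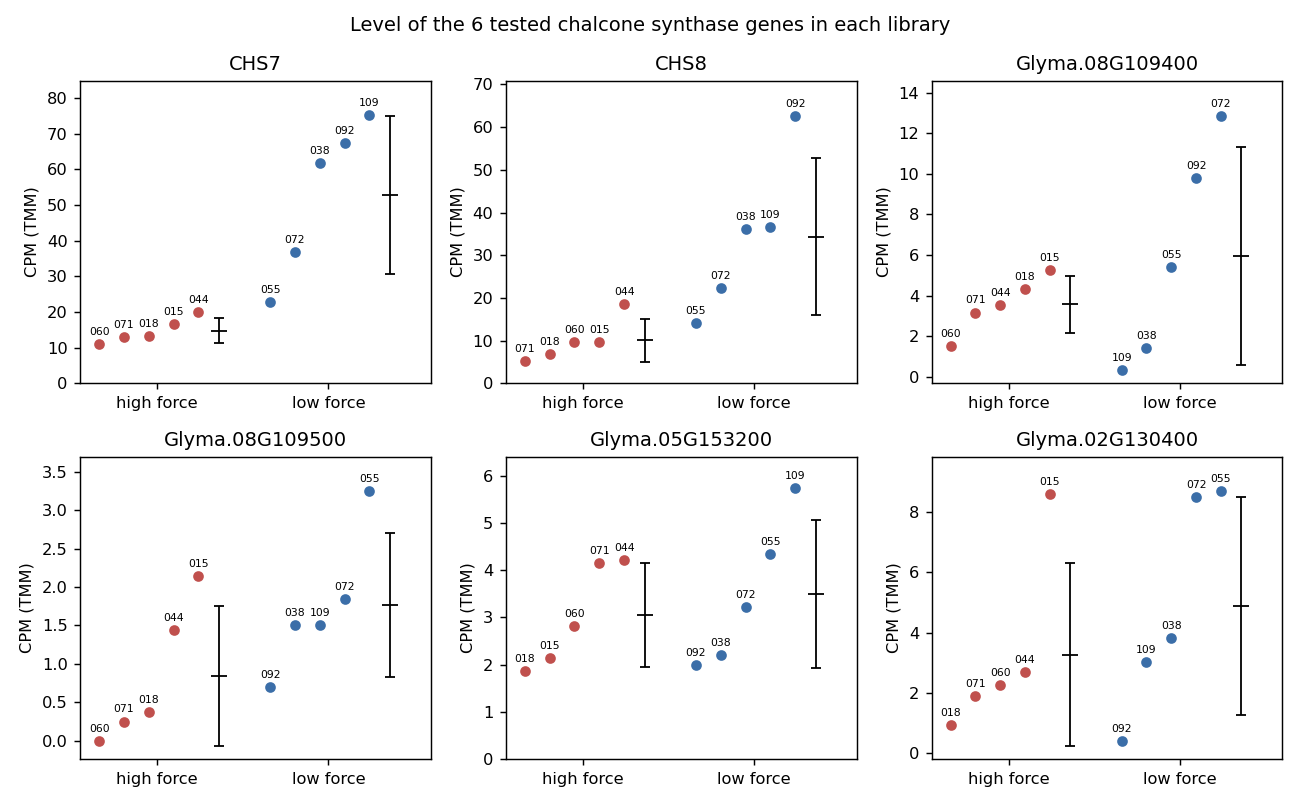
Levels of the 6 tested chalcone synthase genes in CPM (linear axes, each panel with its own scale), 1 point for each soybean, sorted by level within its group, with the mean and SD of 5 libraries at the right of each group. The groups are separate for CHS7 (at most 20.1 CPM in high force, at least 22.8 CPM in low force), cross at 044 and 055 for CHS8, and overlap for the other 4.

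Within low_force, CHS7 and CHS8 were lower in the libraries with high LHY1a, a split seen in the data and not tested. Of these, low_force 055 rests on 21 counts of CHS7 and 13 of CHS8. Low_force 055 and 072 had the lowest CHS7 and CHS8 of their group (22.8 and 36.8 CPM of CHS7), while the 3 low_force libraries with low LHY1a had 61.6 to 75.3 CPM of CHS7. High_force 015, the other library with high LHY1a, had 16.7 CPM, inside the range of its own group. With LHY1a as a covariate the log2 fold change was -1.82 (SE 0.29, edgeR adjusted p = 0.349) for CHS7 and -1.78 (SE 0.38, edgeR adjusted p = 0.591) for CHS8. In the 7 libraries with low LHY1a, a choice made with earlier results of these data known, it was -2.24 (SE 0.26, edgeR adjusted p = 0.0651) for CHS7 and -2.14 (SE 0.43, edgeR adjusted p = 0.395) for CHS8. With a single high_force library among the 3 with high LHY1a, no value was computed there.

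The chromosome 8 rows were low, and the order of the libraries differed between them. Glyma.08G109400, which had the most counts of the 4, stood at 5.28, 4.31, 3.53, 1.50 and 3.16 CPM in high_force 015, 018, 044, 060 and 071. In low_force 038, 055, 072, 092 and 109 it stood at 1.39, 5.43, 12.9, 9.78 and 0.302 CPM. The low_force libraries lay on both sides of the high_force range. Soybeans 055 (on 5 counts), 072 and 092 were above it and 038 and 109 below it. The exact Poisson intervals of 055 (1.76 to 12.7 CPM) and 038 (0.720 to 2.43 CPM) reach into that range. Glyma.08G109400 had 3 counts in low_force 109, the library with the highest CHS7. Its log2 fold change of -0.73 (SE 0.74) did not pass edgeR's quasi-likelihood test (adjusted p = 0.887), and it turned to 0.43 with limma-voom.

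Glyma.08G109500 had at most 29 counts in any library. It lay between 0 and 2.15 CPM in high_force (median 0.375 CPM) and between 0.699 and 3.26 CPM in low_force (median 1.51 CPM), with overlapping groups and a log2 fold change of -0.82 (SE 0.76, edgeR adjusted p = 0.876). Glyma.08G109300 and Glyma.08G109200 were too low for the test. Glyma.08G109300 reached 26 counts in high_force 044 (1.29 CPM) and in high_force 071 (2.16 CPM). In low_force it had 1.86 CPM in 038 and 1.61 CPM in 072, with 0 counts in 055 and 092. The limits of those 0 counts were 3.26 CPM in 055 and 0.299 CPM in 092. Glyma.08G109200 had 0 counts in 6 of the 10 libraries and at most 6. The rows on either side, Glyma.08G109100 and Glyma.08G109600, chosen after their values were seen, had at least 90 and 86 counts in every library. Reads that match several copies may have been split or dropped among the chromosome 8 rows, and nothing is read from this contrast.

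Summed, the 4 chromosome 8 rows made 5.44 ± 2.06 CPM (SD, n = 5) across high_force and 8.81 ± 5.51 CPM (SD, n = 5) across low_force. Entered as a single row, they had a log2 fold change of -0.67 (SE 0.48). Their share of the counts of the 9 rows ran from 2.04% in low_force 109 to 19.4% in low_force 072, both from the same group. High_force libraries lay between, at 8.05% to 18.7%.

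Glyma.05G153200 had the smallest ratio of highest to lowest level among the 6 tested rows. It stood between 1.87 and 4.23 CPM in high_force (median 2.82 CPM) and between 1.996 and 5.74 CPM in low_force (median 3.22 CPM). The log2 fold change was -0.15 (SE 0.42, edgeR adjusted p = 0.967), and its sign turned without low_force 109 (0.18) and with library size only (0.43). Within 2 SE of the fitted value, the level in low_force runs from 0.620 to 1.98 times that in high_force, which leaves out the 3.60-fold difference of CHS7. Glyma.09G075200 had 7 counts in all, of which high_force 044, the deepest library, had 5.

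Glyma.02G130400 ordered the libraries another way. It stood at 8.58 CPM in high_force 015, 8.68 CPM in low_force 055 and 8.50 CPM in low_force 072, the 3 libraries with high LHY1a. In the other 7 it lay between 0.399 CPM (low_force 092) and 3.83 CPM (low_force 038), with a median of 2.25 CPM. The level in low_force 055 rests on 8 counts, and its exact Poisson interval (3.75 to 17.1 CPM) includes the 3.83 CPM of low_force 038. Those in high_force 015 and low_force 072 rest on 52 and 37 counts. Between the force groups its log2 fold change was -0.46 (SE 0.74, edgeR adjusted p = 0.928), with the sign turned by limma-voom (0.094) and library size only (0.29). It was -1.18 without high_force 015 and -0.06 without low_force 072, both libraries with high LHY1a. This split by LHY1a was seen in the data and not tested. The share of all genes that were highest in the 3 libraries with high LHY1a was not computed. Glyma.08G109500 was also highest in the same 3 libraries, at 1.84 to 3.26 CPM against at most 1.51 CPM. That rests on 13 counts in high_force 015, 3 in low_force 055 and 8 in low_force 072. Their exact Poisson intervals (1.14 to 3.67, 0.671 to 9.51 and 0.794 to 3.62 CPM) all include 1.51 CPM, so this order lies within counting error.

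Of the 9 chalcone synthase rows 6 passed the filter on low counts, and all 6 had a log2 fold change below 0, as had 51.3% of all genes tested. Fitted without the filter, Glyma.08G109200 was at -1.82 (SE 1.20), Glyma.08G109300 at 0.29 (SE 0.93) and Glyma.09G075200 at 1.39 (SE 1.23), each within 2 SE of 0. At unadjusted p under 0.05 in edgeR there were 2 of the 6, CHS7 and CHS8, where 3.79% of all genes were lower in high_force at that level. The median log2 fold change of all genes was -0.01. The fitted differences of the 4 others lay between -0.82 and -0.15, each smaller than 2 of its SE. Their two-sided exact permutation p ranged from 0.103 to 0.952, with 6 genes compared in all. A difference of the size seen for CHS7 lies within 2 SE of the estimate for Glyma.08G109400, Glyma.08G109500 and Glyma.02G130400, so for these rows the data do not tell such a difference from none.

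**Figure D3:**
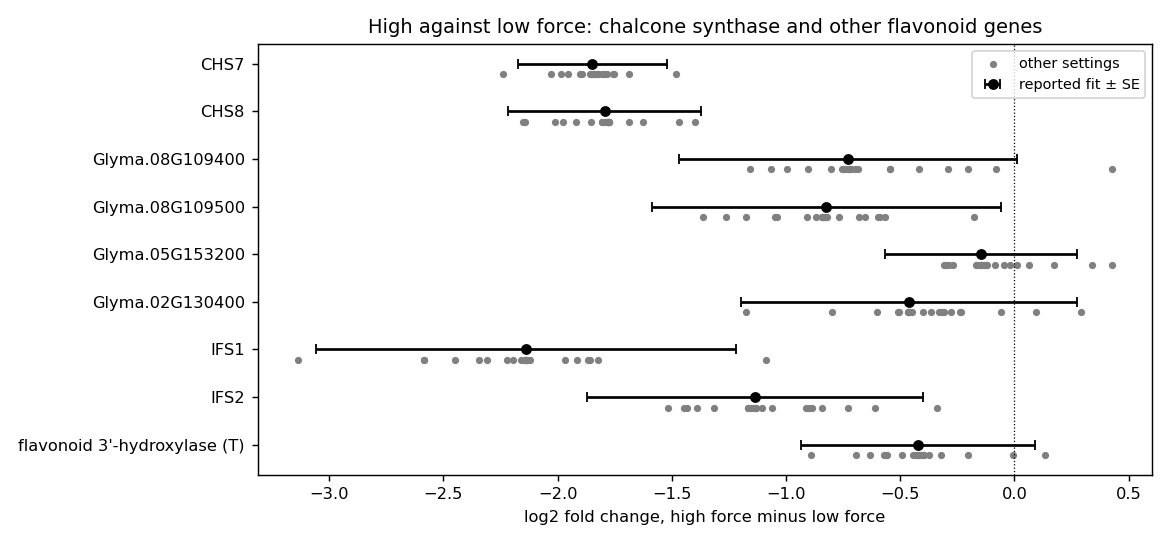
Log2 fold change, high force minus low force, of the 6 tested chalcone synthase genes and 3 other flavonoid genes, with the reported edgeR fit and its SE (black) and the other settings tried (grey). CHS7 and CHS8 stay below -1.40 in every setting drawn, whereas Glyma.08G109400, Glyma.05G153200 and Glyma.02G130400 have settings on both sides of 0.

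CHS7 and CHS8 varied together over the 10 libraries. Pearson's r of their log2 CPM was 0.94 (permutation p = 0.0001, adjusted p = 0.0015 over 15 pairs) and Spearman's rho 0.94 (permutation p = 0.00022, adjusted p = 0.0033). Without low_force 092 and 109, the libraries farthest from the median of CHS7, r was 0.91. On deviations from the group means r was 0.83 (permutation p = 0.00607, adjusted p = 0.0911), and in the 7 libraries with low LHY1a it was 0.93 (n = 7, permutation test, adjusted p = 0.198), so neither passed. How reads that match both copies were counted is not stated, and their part in this correlation was not tested.

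Of the 15 pairs among the 6 tested genes, this was the only pair to pass by Pearson's r, and r ranged from -0.41 to 0.94 with a median of 0.087. Glyma.08G109500 and Glyma.02G130400 passed by Spearman's rho (0.87, permutation p = 0.00209, adjusted p = 0.0157) but not by r (0.64, permutation p = 0.0459, adjusted p = 0.344). Both were highest in the 3 libraries with high LHY1a, within counting error for Glyma.08G109500, and in the other 7 r was 0.27 (n = 7). Without high_force 060 and 071, where Glyma.08G109500 had 0 and 3 counts, r was 0.89. CHS7 had r = -0.17 with Glyma.08G109400, 0.47 with Glyma.08G109500, 0.087 with Glyma.05G153200 and -0.06 with Glyma.02G130400, with adjusted permutation p from 0.747 to 0.98. Glyma.08G109400 and Glyma.08G109500, the tested rows of chromosome 8, had r = 0.19 with each other (adjusted permutation p = 0.98). The largest count of any row outside CHS7 and CHS8 was 98.

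**Figure D4:**
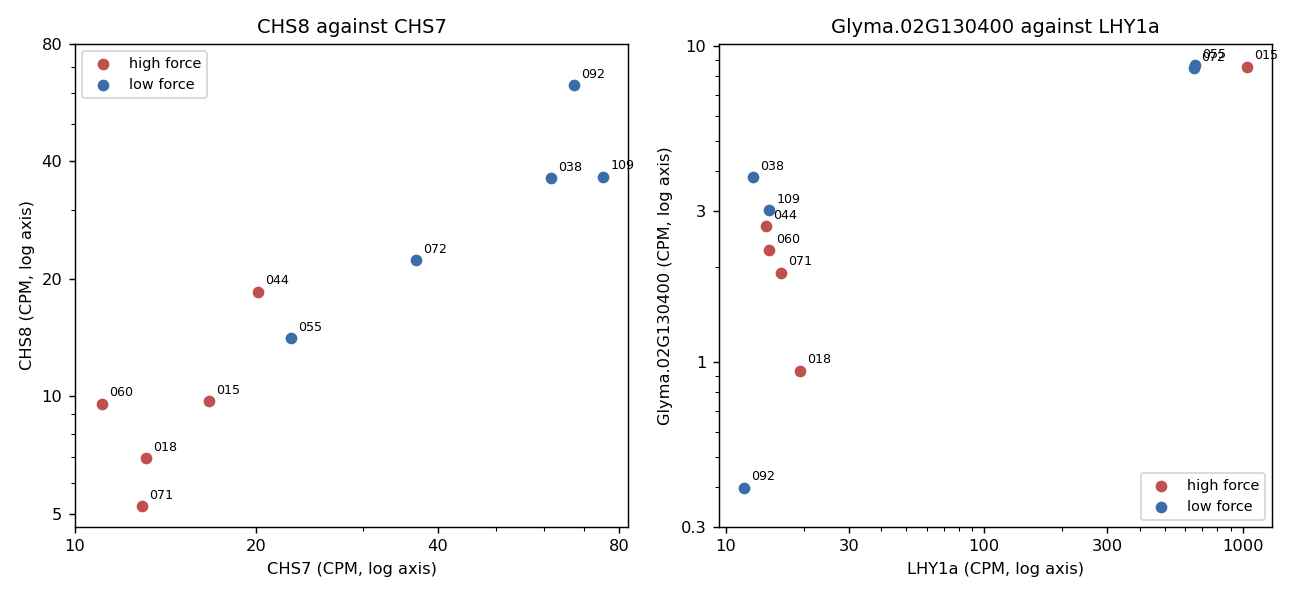
Left, CHS8 against CHS7, and right, Glyma.02G130400 against the clock gene LHY1a, both in CPM on log axes, 1 point for each library, coloured by force group and marked with the soybean number. CHS8 rises with CHS7 (r = 0.94), and on the right high force 015 and low force 055 and 072 stand together at 8.50 to 8.68 CPM, above the other 7.

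The genes most like CHS7 and CHS8 in pattern were found over the same 10 libraries, as a description. For CHS7 these were Glyma.02G154600 (r = 0.93), Glyma.01G056100 (r = 0.91) and Glyma.08G317000 (r = 0.91), and 5 tested genes outside the 9 rows had r above 0.9. For CHS8 they were Glyma.16G179300 (r = 0.94), Glyma.19G135100 (r = 0.93) and Glyma.08G306800 (r = 0.93), with 10 such genes. Their log2 fold changes ran from -2.23 for Glyma.01G056100 to -0.57 for Glyma.16G179300, and none passed edgeR's test (adjusted p = 0.796 for each). Genes chosen for following CHS7 or CHS8 over both groups share the sign of these through that choice, and nothing is read from it. The files do not pair these identifiers with names.

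Of the genes that act after chalcone synthase in the flavonoid pathway, 3 had been paired with an identifier in an earlier account of these data. No file used here could check that pairing. IFS1 (Glyma.07G202300) and its relative IFS2 (Glyma.13G173500) encode isoflavone synthases, which lead to isoflavonoids. Glyma.06G202300, the T locus, encodes a flavonoid 3'-hydroxylase, which adds a hydroxyl group to the B ring of flavonoids. IFS1 ran from 0.188 to 4.79 CPM in high_force and from 0.230 to 28.6 CPM in low_force. It was lowest in low_force 072 within its group, on 1 count, and highest in low_force 092. IFS2 ran from 5.26 to 44.5 CPM and from 5.52 to 107.4 CPM, and the flavonoid 3'-hydroxylase from 7.90 to 45.8 CPM and from 12.2 to 64.5 CPM. The groups overlapped for all 3, and 0 of the 3 passed edgeR's quasi-likelihood test over all genes in either direction, with log2 fold changes of -2.14 (SE 0.92), -1.14 (SE 0.73) and -0.42 (SE 0.51) and adjusted p of 0.796, 0.835 and 0.904. At unadjusted p under 0.05 in edgeR 1 of the 3, IFS1, was among them, against 3.79% of all genes lower in high_force. The value for IFS1 depends on the libraries: it was -1.09 without low_force 092 and -3.14 in the 7 libraries with low LHY1a. The unadjusted edgeR p of IFS1 was 0.229 without low_force 092, and it was also above 0.05 without low_force 038 or without high_force 018, 044, 060 or 071.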

How the data were processed

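Libraries were prepared with TruSeq RNA chemistry, per the labels. The authors deposited a table of unnormalised counts with 56044 gene rows and 10 columns. Tools named by the submitters' processing notes, without settings, are edgeR, Subread (1.6.2), featureCounts, TopHat2 and Trim Galore (0.4.4). The row identifiers end in Wm82.a2.v1, which names an assembly and annotation version of the cultivar Williams 82. The genome used for alignment, strand handling and treatment of reads with several matches are not otherwise given in the sources used here. Counts were fitted with edgeR 4.0.16 in R 4.3.3 (TMM scaling, filterByExpr, quasi-likelihood F test, Benjamini-Hochberg over 30226 genes, threshold 0.05, two-sided). Each SE was obtained as |log2 fold change| over the root of the F statistic, and a prior count of 2 entered log2 CPM. The fit was tested on data simulated from the means and dispersions of these same counts, which cannot check the model against these data. Exact permutation tests used all assignments of libraries to groups, 252 for 10 libraries and fewer where libraries were left out. Correlations used 100000 resamples, within groups for deviations from group means. Alternatives used limma 3.58.1 and DESeq2 1.42.0. Intervals came from SciPy 1.17.1. Depth is given with the libraries. Members, lists, and the choice of libraries left out were made with earlier results of these data known. The rule for named genes took all 9 rows, the other pathway genes where at most 5 were tested, and the 3 genes most like CHS7 and CHS8. The RefSeq table (59048 genes) matched 0 identifiers, so the pathway list came down to 3 genes. Their names and those of CHS7, CHS8, Gy1 and LHY1a were paired with identifiers from an earlier account of these data, and no file used here could check the pairing. Scaling by coding length and the promoter search were not run, and no sequence was used here.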

Additional observations from a re-analysis of the deposited data

How the results depend on the processing

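No paired analysis was possible because the groups share no soybean number. CHS7 and CHS8 kept a log2 fold change below 0 under all 21 other settings and with their counts summed into 1 row (-1.82), and without each soybean in turn they ran from -2.03 to -1.69 and from -2.15 to -1.47. CHS7 passed over all genes only with DESeq2 (-1.86), where the number of all genes called was 25. That number, 0 in the reported fit (1893 at unadjusted p under 0.05), was 0 to 1 without each soybean (1 without high_force 015 or 071 or low_force 055), 1 without soybeans 055 and 109, 2 in the 7 libraries with low LHY1a and 62 with library size only. The sign turned for Glyma.05G153200 with library size only (0.43), limma-voom (0.066), without soybeans 055 and 109 (0.34), in the 7 libraries with low LHY1a (0.012) and without single soybeans (-0.31 to 0.18). IFS1 stayed below 0, from -2.59 to -1.09 without single soybeans. The sign turned for Glyma.02G130400 with library size only (0.29) and limma-voom (0.094), and without single soybeans it ran from -1.18 to -0.06. It turned for Glyma.08G109400 with limma-voom (0.43), and for the flavonoid 3'-hydroxylase without single soybeans (-0.89 to 0.13, above 0 without low_force 092). The count of tested rows with an exact permutation p under 0.05, 2 in the reported setting, was 3 without high_force 015. There 1856 of 31078 genes were lower in high_force at unadjusted p under 0.05 in edgeR, against 1146 of 30226 in the reported fit. The count of tested rows was 2 without each other soybean and 0 with library size only (CHS7 -0.87, CHS8 -0.87). In the 7 libraries with low LHY1a, which allow fewer assignments, the count was 1. There the groups did not overlap for CHS8 (difference -2.26, exact permutation p = 0.0571). In the reported setting 2.34% of all genes tested were lower in high_force with an exact p under 0.05. That share was not computed for the other settings, nor was the share of all genes without overlap in the 7 libraries with low LHY1a. The correlation of CHS7 and CHS8 no longer passed on deviations from group means (0.83) or in those 7 libraries (0.93), leaving 0 pairs. The mean shares of CHS7 and CHS8 moved by less than their SD without any soybean. The causes were not tested. Depth limits the rows other than CHS7 and CHS8 in all libraries, and in low_force 055 also CHS7 (21 counts) and CHS8 (13 counts). Scaling by coding length was not run.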
